A study of Ovis aries with 40 samples.

Results

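The expression of 8 genes that mark lung macrophages, *MARCO*, *MSR1*, *CD5L*, *MRC1*, *ADGRE1*, *CSF1R*, *SLC11A1* and *CD163*, was followed through lung development in wildtype (WT) and *CFTR*-/- (CF) sheep. The genes were taken by name from the count tables of the proximal and distal lung time courses. They and the gene lists below were chosen with earlier results of these data known. Shares over all genes, given beside their counts, are therefore descriptions. Of the 8 genes, 7 had a row among the 24478 genes of the tables, and *CD163* is not analysed here. All 7 passed the filter on low counts in every test. *MARCO*, *CD5L* and *ADGRE1* passed it only through the term libraries, apart from *MARCO* in the comparison of CF lung regions. A gene that enters a test only through the days on which it is high had to differ between days, so their tests over time describe a known difference in level.

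Bulk RNA was sequenced from 40 libraries, 2 per condition of genotype, region and age (65, 80, 100 and 120 days of gestation and term, labelled day 147). All animals were American Romney sheep. WT animals came from natural breeding, and WT term animals were born naturally. CF animals were clones made by somatic cell nuclear transfer from 1 male fetal fibroblast line whose *CFTR* exon 2 had been targeted. The delivery of the CF term animals and the hours between birth and collection are not given in the sources used here. Genotype, cloning and, before term, sequencing depth moved together, so that a CF against WT difference cannot be assigned to any of them. Pieces of proximal and distal lung were snap frozen, and both regions came from the same animals. With 2 libraries per condition, a p-value compares a difference with the spread between those libraries only.

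Macrophages clear particles, microbes and dying cells from lung tissue. Those of the fetal lung derive from yolk sac and fetal liver precursors, and alveolar macrophages mature around birth, when the airspaces fill with air. The CSF-1 receptor carries the survival signal shared by nearly all macrophages. Granulocyte-macrophage colony-stimulating factor, encoded by *CSF2*, and the nuclear receptor PPARG drive alveolar macrophage maturation. Scavenger receptors, C-type lectins and metal transporters then carry out the uptake and digestion of cargo.

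Read totals ran from 24670355 to 43700012 in the 16 WT libraries before term, from 85773994 to 103139483 in the 16 CF libraries of the same days, and from 115937437 to 126749480 in the 8 term libraries. In a WT library before term, 3 reads were worth 0.0686 to 0.122 CPM (read counts scaled to a common library size), against 0.0291 to 0.0350 CPM in a CF library. Both WT day 100 libraries of a region carried 1 animal label, and WT day 65 replicate 2 shared a label with CF day 100 replicate 2. CF proximal day 120 replicate 2 stood apart from its replicate, with a chi-square per gene of 1852 between the pair against at most 648 in the other 19 pairs. Its epithelial markers summed to 18938 CPM, against 5217 CPM in replicate 1. The main test results of the macrophage genes that rest on this library are also given without it. Those of the gene lists are given with it only. The labels name the tissue as epithelial, but besides epithelial markers (611 to 27255 CPM summed over 7 genes) every library held fibroblast markers (1438 to 16516 CPM over 5 genes) and endothelial markers (866 to 2290 CPM over 6 genes). In such whole tissue RNA, a lower level of a macrophage gene cannot be told apart from fewer macrophages or from less RNA per cell.

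Before term, the macrophage genes differed in whether they were read at all. *CSF1R* and *MRC1* were read in every library from day 65 on, and *MSR1* was also detected in all of them at a lower level. *SLC11A1* was near the limit of detection, and *MARCO*, *CD5L* and *ADGRE1* were mostly unread. Per kilobase of exon, which allows genes to be compared, *CSF1R* had 2.42 to 7.85 CPM over the 32 libraries before term, *MRC1* 0.332 to 4.44 and *MSR1* 0.0883 to 0.638. The ranges of *CSF1R* and *MRC1* overlapped, and so did those of *MRC1* and *MSR1*. *SLC11A1* had 0 to 0.444 CPM per kilobase, and no library before term held more than 0.149 CPM per kilobase of *MARCO*, *CD5L* or *ADGRE1*. At term all 7 genes were higher in every course, and their order differed from that before term in both genotypes.

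**Figure D1:**
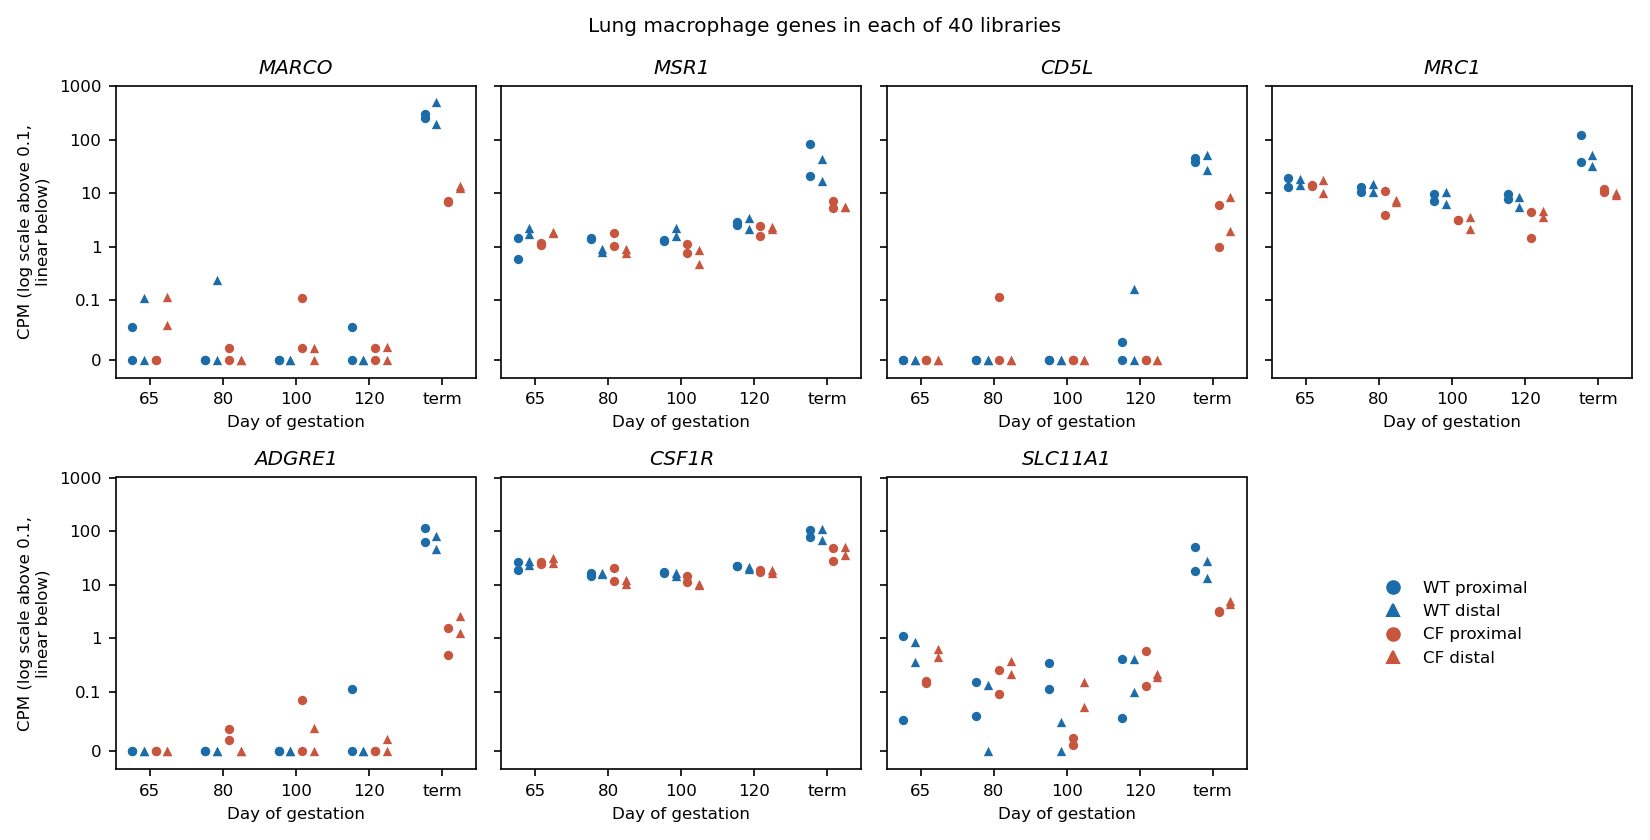
Level of the 7 macrophage genes in CPM (log scale above 0.1, linear below) against day of gestation, 1 point per library, with WT in blue, CF in red, proximal lung as circles and distal lung as triangles. All genes stood higher at term than at day 120 in all 4 courses, and the 4 WT term libraries lay above the 4 CF term libraries for each gene.

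*MARCO* (Oar_v4.0, chromosome 2, 183240941 to 183279092, plus strand, 14 exon blocks) encodes a class A scavenger receptor that binds unopsonized particles and bacteria and is typical of alveolar macrophages. It had 0 reads in 20 of the 32 libraries before term and at most 12 reads in the others. At term it had 256 and 306 CPM in WT proximal and 199 and 494 CPM in WT distal lung. In CF it had 7.19 and 6.73 CPM in proximal and 13.5 and 12.4 CPM in distal lung. The 4 WT libraries were thus far above the 4 CF libraries, and both genotypes were far above every earlier library. As a ratio of reads summed over both libraries of a day, each sum scaled by its summed library size, term was 9880-fold above day 120 in WT proximal lung (95% counting interval 1773 to 390274), at least 3736-fold in WT distal, 655-fold in CF proximal (117 to 25915) and 1238-fold in CF distal lung (222 to 48937). Of the counts from 1 to 20 in a library, 69.2% to 85.8% were even, so the intervals here and for the next genes take pairs of reads as the counted unit. They cover counting error only, and a lower bound takes 3 pairs over both libraries as the most that 0 reads allow.

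*MSR1* (chromosome 26, 19597178 to 19684369, plus strand, 13 exon blocks) encodes the class A scavenger receptor that takes up modified lipoproteins. Unlike *MARCO*, it was present throughout gestation, at 0.579 to 3.39 CPM in WT (median 1.5, n = 16 libraries) and 0.468 to 2.48 CPM in CF (median 1.14, n = 16). Its term levels were 21.3 and 81.9 CPM in WT proximal and 16.6 and 42.7 CPM in WT distal lung. In CF at term it had 5.36 and 7.04 CPM in proximal and 5.45 and 5.48 CPM in distal lung. The WT animals differed from each other by more than the CF animals did, but the genotypes did not overlap. Term was 19.3-fold above day 120 in WT proximal, 11.5-fold in WT distal, 2.96-fold in CF proximal and 2.46-fold in CF distal lung.

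*CD5L* (chromosome 1, 106583327 to 106650025, minus strand, 11 exon blocks) encodes a secreted scavenger protein that macrophages release and that keeps them from apoptosis. It had 0 reads in 29 of the 32 libraries before term. The 3 others held 1 read (WT proximal day 120 replicate 1), 4 reads (WT distal day 120 replicate 1) and 12 reads (CF proximal day 80 replicate 1). At term it had 38.2 and 44.4 CPM in WT proximal, 27.5 and 52.1 CPM in WT distal, 0.999 and 5.96 CPM in CF proximal and 1.98 and 8.34 CPM in CF distal lung. In both CF regions replicate 2 was well above replicate 1, so that this gene had the widest spread of the 7 between the CF animals. Term was 2906-fold above day 120 in WT proximal lung (95% counting interval 261 to 57400), 642-fold in WT distal, where the day 120 value rests on the 4 reads of 1 library, at least 104-fold in CF proximal and at least 161-fold in CF distal lung. Most reads behind both CF bounds came from term replicate 2 (540 against 103 in proximal and 748 against 188 in distal lung).

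*MRC1* (chromosome 13, 31296441 to 31408204, plus strand, 30 exon blocks) encodes the mannose receptor, a C-type lectin of tissue and alveolar macrophages that takes up glycoproteins. It was the only gene that passed the looser limit for genotype before term, and those values are given with that comparison. At term it reached 38.9 and 124 CPM in WT proximal and 32.2 and 52.4 CPM in WT distal lung. In CF at term it had 10.3 and 12.1 CPM in proximal and 9.98 and 9.14 CPM in distal lung, which is within the range of WT lung before term (5.47 to 19.4 CPM, median 10.5, n = 16). Term was 9.49-fold above day 120 in WT proximal, 6.40-fold in WT distal, 3.58-fold in CF proximal and 2.33-fold in CF distal lung.

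*ADGRE1* (chromosome 5, 15144105 to 15223883, minus strand, 30 exon blocks) encodes the adhesion receptor known in mice as F4/80, a surface marker of macrophages. It had 0 reads in 26 of the 32 libraries before term and at most 8 reads in the others. At term it had 62.6 and 112 CPM in WT proximal and 45.6 and 82.3 CPM in WT distal lung. In CF it had 0.485 and 1.57 CPM in proximal and 1.24 and 2.55 CPM in distal lung, which gave it the lowest median of the 7 genes in CF lung at term (1.41 CPM, n = 4). Term was 1544-fold above day 120 in WT proximal lung, where the day 120 value rests on the 4 reads of replicate 2, and at least 688-fold in WT distal lung. It was at least 31.0-fold above day 120 in CF proximal lung and 180-fold in CF distal lung (95% counting interval 31.9 to 7154).

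*CSF1R* (chromosome 5, 58820544 to 58851707, minus strand, 21 exon blocks) encodes the receptor for CSF-1 and interleukin-34. It had the smallest genotype difference of the 7 genes, and the smallest rise in every course but CF distal lung, where that of *MRC1* was smaller. Its term levels were 77.4 and 103 CPM in WT proximal, 67.6 and 110 CPM in WT distal, 27.9 and 48.0 CPM in CF proximal and 35.4 and 51.2 CPM in CF distal lung. Term was 4.04-fold above day 120 in WT proximal, 4.41-fold in WT distal, 2.08-fold in CF proximal and 2.40-fold in CF distal lung.

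*SLC11A1* (chromosome 2, 219375533 to 219386591, plus strand, 15 exon blocks) encodes the divalent metal transporter of the phagosome membrane, which withholds iron and manganese from ingested microbes. Before term it had 0 to 1.10 CPM in WT (median 0.124, n = 16) and 0.00986 to 0.636 CPM in CF (median 0.172, n = 16). At term it had 17.8 and 50.3 CPM in WT proximal, 13.4 and 28 CPM in WT distal, 3.15 and 3.04 CPM in CF proximal and 4.42 and 4.85 CPM in CF distal lung. The ratio of term to day 120 was 151 in WT proximal, 95.5 in WT distal, 9.25 in CF proximal and 23.3 in CF distal lung. These ratios rest on 63 or fewer reads at day 120 and moved by over 1.5 times with single libraries left out in WT and CF proximal lung, as given with the tests.

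The per kilobase order at term differed between the genotypes. In WT term libraries *MARCO* led with 123 to 306 CPM per kilobase, clear of all others. The next 6 genes, *CSF1R* (16.9 to 27.5), *CD5L* (13.8 to 26.1), *ADGRE1* (10.3 to 25.4), *MRC1* (7.37 to 28.3), *SLC11A1* (5.4 to 20.3) and *MSR1* (3.12 to 15.4), overlapped each of their neighbours in this order. In CF term libraries *CSF1R* was first with 7.0 to 12.8 CPM per kilobase, overlapping *MARCO* with 4.16 to 8.34. *MRC1* (2.09 to 2.77) lay within the wide range of *CD5L* (0.501 to 4.18), and *SLC11A1* (1.23 to 1.96) overlapped *MSR1* (1.01 to 1.33). *ADGRE1* was last at 0.110 to 0.577 CPM per kilobase and overlapped *CD5L* only.

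**Figure D2:**
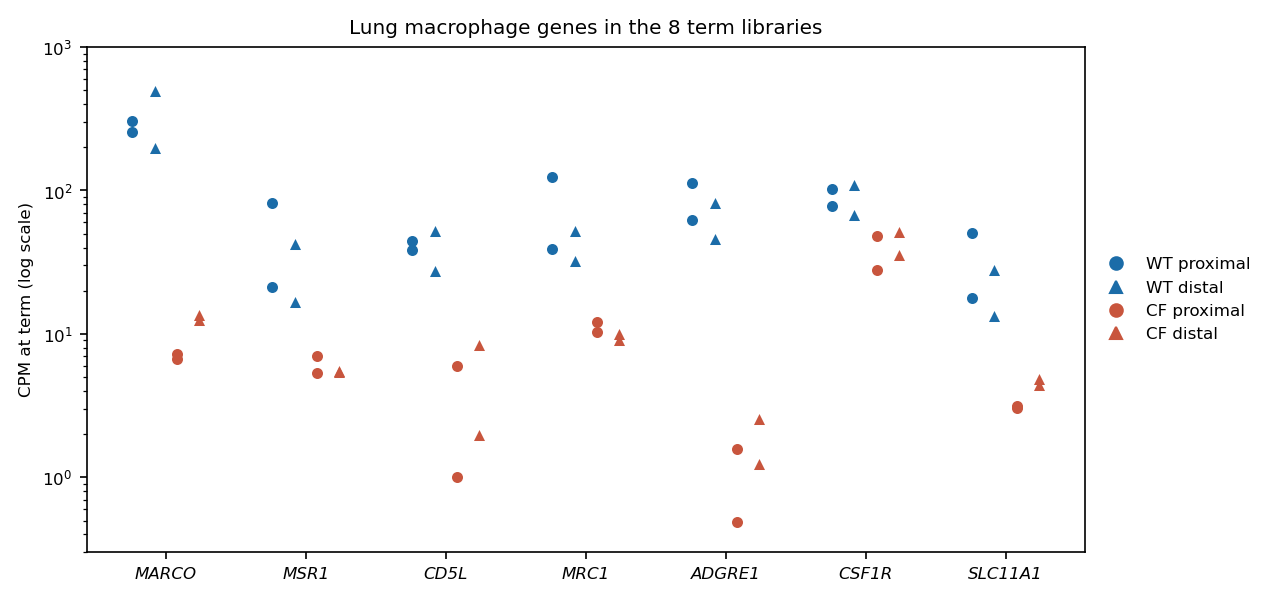
Level of the 7 macrophage genes at term in CPM (log axis), 1 point per library, with WT in blue, CF in red, proximal lung as circles and distal lung as triangles. No CF library reached the lowest WT library for any gene, with the narrowest gap in *CSF1R* (51.2 CPM in CF distal against 67.6 CPM in WT distal lung).

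The animals of 1 genotype also differed at term. WT replicate 2 was above replicate 1 for 7 of 7 genes in proximal lung, by 1.16-fold (*CD5L*) to 3.85-fold (*MSR1*), and for 7 of 7 genes in distal lung, by 1.62-fold (*CSF1R*) to 2.58-fold (*MSR1*). Both regions came from the same 2 animals, so the regions are not separate evidence for this order. In CF, replicate 2 was above replicate 1 for 5 of 7 genes in each region, with ratios of 0.936 (*MARCO*) to 5.96 (*CD5L*) in proximal and 0.916 (*MRC1*) to 4.20 (*CD5L*) in distal lung.

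The change from day 120 to term was tested with edgeR's quasi-likelihood test, with p-values adjusted by Benjamini-Hochberg over all genes. A differentially expressed gene (DEG) was one whose adjusted p did not exceed 0.001 and whose log2 fold change was at least 0.58 up or down. In WT proximal lung 4 of the 7 genes were DEGs, all higher at term, against 1.2% of all genes tested. These were *MARCO* (adjusted p = 3.66e-05), *CD5L* (adjusted p = 0.00021), *CSF1R* (log2 fold change 2.01 ± 0.19 SE, adjusted p = 0.000284) and *ADGRE1* (adjusted p = 0.000404). *MSR1* (4.25 ± 0.63, adjusted p = 0.00188), *MRC1* (3.23 ± 0.49, adjusted p = 0.00207) and *SLC11A1* (7.19 ± 1.22, adjusted p = 0.00351) rose at the looser limit of 0.05, which 11.3% of all genes passed upwards. Here and in the other courses, *MARCO*, *CD5L* and *ADGRE1* entered the tests over time through the term libraries, so their calls are not read against these shares, and the other 4 genes are. The count fell to 1 DEG without WT proximal day 120 replicate 1, without day 120 replicate 2 or without term replicate 2, while all 7 stayed below 0.05 with any library left out. By DESeq2's test *ADGRE1* did not pass 0.05 (adjusted p = 0.0636). The log2 fold changes of *MSR1* and *MRC1* were 2.96 and 2.15 without term replicate 2 and 4.93 and 3.84 without term replicate 1. That of *SLC11A1* ran from 6.24 to 9.22 without term replicate 2 or either day 120 library.

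In WT distal lung 2 of the 7 genes were DEGs, against 0.624% of all genes. They were *MARCO* (adjusted p = 0.000652) and *CSF1R* (2.10 ± 0.24, adjusted p = 0.000973). The other 5 rose at the looser limit, which 11.8% of all genes passed upwards, with log2 fold changes of 3.43 ± 0.49 for *MSR1* (adjusted p = 0.00251), 2.59 ± 0.37 for *MRC1* (adjusted p = 0.00248) and 6.42 ± 0.99 for *SLC11A1* (adjusted p = 0.00324). *CD5L* (adjusted p = 0.00287) and *ADGRE1* (adjusted p = 0.00121) also passed it, but *CD5L* did not by DESeq2's test (adjusted p = 0.122). No DEG was left without either day 80, either day 100 or either day 120 library of WT distal lung. There was 1 without day 65 replicate 2 or without term replicate 2, and 5 without term replicate 1. Summing the WT day 100 libraries, which carry 1 animal label, also left none. The highest adjusted p of any of the 7 with 1 library left out was 0.0273 (*SLC11A1*, without day 120 replicate 2). Its log2 fold change ran from 5.62 to 7.65 without term replicate 2 or either day 120 library, and that of *MSR1* was 2.54 without term replicate 2.

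In CF proximal lung none of the 7 genes was a DEG and none passed the looser limit, where 0% and 0.0762% of all genes passed upwards, although all 7 had an unadjusted p below 0.05. Their adjusted p-values ran from 0.0601 (*MARCO*) to 0.260 (*CSF1R*, 1.04 ± 0.38). DESeq2's test called 1 DEG, *MARCO*, against 0.818% of all genes upwards, and at the looser limit 5 genes passed it, against 3.07%, those other than *CD5L* and *CSF1R*. In 1 fit over the 40 libraries all 7 passed the looser limit, with adjusted p-values of 2.03e-05 (*MARCO*) to 0.0368 (*MSR1*), against 5.53% of all genes. The values given at day 120 include the library that stood apart. Without it there was still no DEG, and the lowest adjusted p was 0.0556, for *MARCO*. The log2 fold change of *SLC11A1* was then 4.55 (adjusted p = 0.0616) in place of 3.09, that of *MRC1* 1.27 (adjusted p = 0.215) in place of 1.87, that of *MSR1* 1.29 (adjusted p = 0.212) in place of 1.57 and that of *CSF1R* 1.12 (adjusted p = 0.18). Without day 120 replicate 1, *MARCO* (adjusted p = 0.0232) and *MRC1* (2.91, adjusted p = 0.0397) passed the looser limit.

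In CF distal lung none of the 7 was a DEG by edgeR and 3 were by DESeq2, against 0.082% of all genes by edgeR and 7.59% by DESeq2, and all 7 passed the looser limit upwards, against 11.5%. The rises were 4.52 ± 0.57 for *SLC11A1* (adjusted p = 0.00252), 1.26 ± 0.25 for *CSF1R* (adjusted p = 0.011), 1.29 ± 0.39 for *MSR1* (adjusted p = 0.0443) and 1.21 ± 0.37 for *MRC1* (adjusted p = 0.0445). *MARCO* (adjusted p = 0.00117), *CD5L* (adjusted p = 0.011) and *ADGRE1* (adjusted p = 0.0174) rose from levels at or near 0. The *MSR1* call was lost with any 1 of the 10 libraries left out (adjusted p of 0.0573 to 0.138) and the *MRC1* call with 8 of them, all but the 2 day 65 libraries (up to 0.124). The *CSF1R* call was lost without day 120 replicate 1 (adjusted p = 0.0602) or term replicate 2 (adjusted p = 0.0515), that of *CD5L* without term replicate 2 (adjusted p = 0.0557), and that of *ADGRE1* without day 120 replicate 1 (adjusted p = 0.0633) or term replicate 2 (adjusted p = 0.0884). *MARCO* and *SLC11A1* kept theirs with each library left out. DESeq2's test ended the call of *ADGRE1* (adjusted p = 0.152), and 1 fit over the 40 libraries those of *MSR1* (adjusted p = 0.0625) and *MRC1* (adjusted p = 0.0835). In all 4 courses both term libraries lay above both day 120 libraries for *MSR1*, *MRC1*, *CSF1R* and *SLC11A1*, which held for 37.1%, 34%, 16.2% and 27% of all genes in WT proximal, WT distal, CF proximal and CF distal lung. The same order held for *MARCO*, *CD5L* and *ADGRE1*, for which it follows from how they passed the filter.

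None of the 7 genes was a DEG or passed the looser limit between any consecutive time points before term, in 12 tests. From day 65 to 80, from 80 to 100 and from 100 to 120, 0.011%, 1.87% and 2.57% of all genes passed the looser limit in WT proximal and 0.0164%, 0.996% and 2.44% in WT distal lung. In CF none did but 0.0203% in proximal and 0.928% in distal lung from day 100 to 120. The DEG limits were passed by 0.077%, 0.0274% and 0.0103% of all genes in WT proximal, WT distal and CF distal lung from day 100 to 120, and by 0% elsewhere. There were 15 values at an unadjusted p below 0.05, while DESeq2 called 2, against 1.05% over all genes and the 12 tests. The levels over these days are given for *MRC1* and *CSF1R*, the genes with the highest levels before term. *MRC1* in WT proximal lung had 19.4 and 13 CPM at day 65, 10.6 and 12.8 at day 80, 9.59 and 7.06 at day 100 and 9.52 and 7.85 at day 120. In CF proximal lung it had 13.4 and 14.4 CPM at day 65, 3.96 and 10.8 at day 80, 3.15 and 3.09 at day 100 and 4.53 and 1.45 at day 120. The day 65 libraries were the highest in both courses.

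Distal lung held like levels. *MRC1* in WT distal lung had 14.2 and 18.3 CPM at day 65, 10.6 and 14.8 at day 80, 10.4 and 6.28 at day 100 and 8.55 and 5.47 at day 120. In CF distal lung it had 17.2 and 9.86 CPM at day 65, 6.94 and 7.54 at day 80, 2.17 and 3.58 at day 100 and 4.71 and 3.51 at day 120. *CSF1R* had its lowest levels in distal lung at days 80 and 100. In CF distal lung it had 31.3 and 25.8 CPM at day 65, 12.4 and 10.4 at day 80, 9.65 and 10.5 at day 100 and 16.8 and 19.1 at day 120. In WT distal lung it had 22.9 and 28.1 CPM at day 65, 16.4 and 15.7 at day 80, 16.7 and 14.2 at day 100 and 21.6 and 19.3 at day 120.

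An F test over the 4 days before term, fitted without the term libraries and added after the data were seen, could be made for *MSR1*, *MRC1*, *CSF1R* and *SLC11A1*. *CSF1R* differed between the 4 days in WT distal (adjusted p = 0.0307) and CF distal lung (adjusted p = 0.0112), and *MRC1* in CF distal lung (adjusted p = 0.0261). *CSF1R* did not pass in WT proximal (adjusted p = 0.134) or CF proximal lung (adjusted p = 0.676, and 0.506 without the library that stood apart). *MSR1* and *SLC11A1* passed in no course, with a lowest adjusted p of 0.0580 (*MSR1*, CF distal). With the WT distal day 100 libraries summed, since they carry 1 animal label, *CSF1R* did not pass in WT distal lung (adjusted p = 0.084). The share of all genes past this limit was 21.6% in WT distal and 10.2% in CF distal lung. *MRC1* did not pass in WT proximal (adjusted p = 0.081), WT distal (adjusted p = 0.0716) or CF proximal lung (adjusted p = 0.432, and 0.234 without the library that stood apart), where 15.7%, 21.6% and 0.185% of all genes did. With the term libraries in the test, 7 of the 7 genes differed over the 5 time points in WT proximal lung at 0.001, 6 in WT distal (not *MRC1*, adjusted p = 0.00201), none in CF proximal and 2 in CF distal lung (*MARCO* and *SLC11A1*), against 10.6%, 7.48%, 0.0254% and 3.59% of all genes. *MARCO*, *CD5L* and *ADGRE1* are again not read against these shares. In CF proximal lung all 7 had an unadjusted p below 0.05, 3 of them passed an adjusted 0.05 (5.36% of all genes), and DESeq2 called 4 at 0.001 (10.6% of all genes). Without the library that stood apart none passed 0.001 and 5 passed 0.05, all but *MRC1* (adjusted p = 0.072) and *CSF1R* (adjusted p = 0.0867). The 6 of WT distal lung became 2 without either WT distal day 100 library. The 2 of CF distal lung became 1 without either day 65, day 80 or day 100 library or term replicate 1, and none without term replicate 2.

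**Figure D3:**
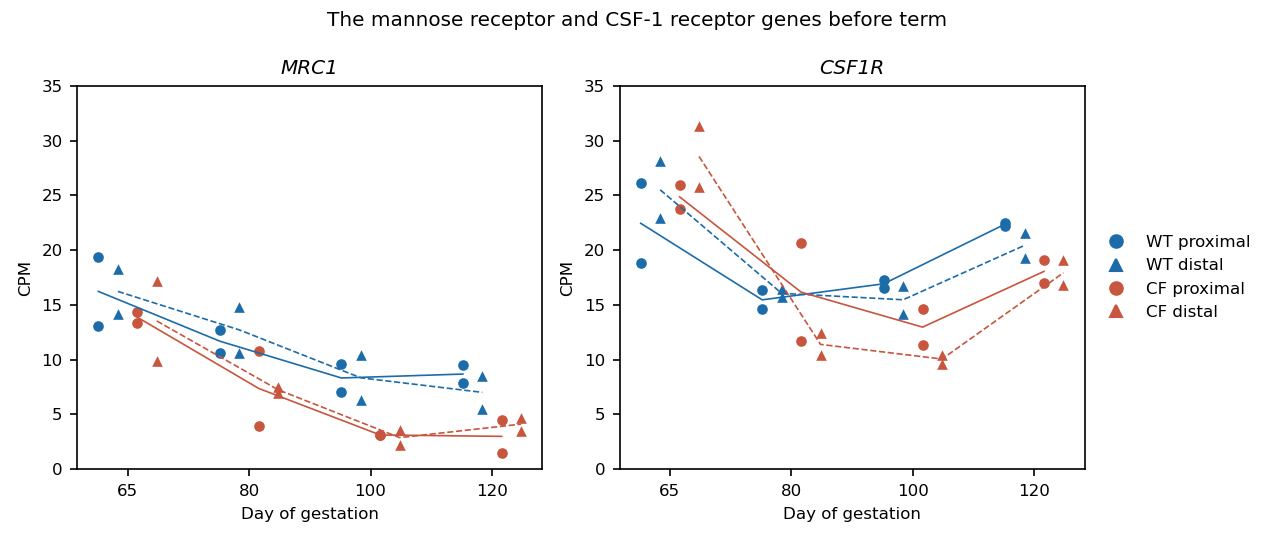
*MRC1* and *CSF1R* in CPM (linear axes) at days 65 to 120, 1 point per library, with WT in blue, CF in red, proximal lung as circles and distal lung as triangles, and lines through the means of 2 libraries (solid for proximal, dashed for distal). *MRC1* went from 17.2 and 9.86 CPM at day 65 to 4.71 and 3.51 CPM at day 120 in CF distal lung, below the WT libraries at days 100 and 120, while *CSF1R* in distal lung was lowest at days 80 and 100.

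At term all 7 genes were lower in CF than in WT lung. The ratio of WT to CF was widest for *ADGRE1*, at 88.7 in proximal and 34.2 in distal lung, followed by *MARCO* at 40.3 and 26.9. It was 12.5 and 7.88 for *CD5L*, 11.1 and 4.49 for *SLC11A1*, 8.5 and 5.45 for *MSR1* and 7.37 and 4.43 for *MRC1*. *CSF1R* had the narrowest ratios, 2.42 in proximal and 2.06 in distal lung. Both CF libraries lay below both WT libraries for all 7 genes in both regions, which held for 29.6% of all genes in proximal and 25.8% in distal lung. The 2 regions share their animals, so their agreement is not a second test.

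In proximal lung none of the 7 genes was a DEG between the genotypes at term, against 0.246% of all genes, and 5 were lower at the looser limit, against 3.48%. These were *MARCO* (-5.33 ± 0.65, adjusted p = 0.00135), *MSR1* (-3.06 ± 0.58, adjusted p = 0.00846), *ADGRE1* (-6.41 ± 1.11, adjusted p = 0.013), *MRC1* (-2.86 ± 0.60, adjusted p = 0.0139) and *CSF1R* (-1.25 ± 0.31, adjusted p = 0.0293). *SLC11A1* (-3.46, adjusted p = 0.0733) and *CD5L* (-3.57, adjusted p = 0.13) did not pass. All 7 had an unadjusted p below 0.05, and DESeq2 called 3 DEGs, against 2.65% of all genes lower in CF. Without the CF day 120 library that stood apart, which enters the shared estimate of the spread, *MARCO* was a DEG (-5.35, adjusted p = 0.000105) and *SLC11A1* passed the looser limit (-3.48, adjusted p = 0.0254). *MSR1* was then at -3.08 (adjusted p = 0.00347), *MRC1* at -2.88 (adjusted p = 0.0028), *ADGRE1* at -6.43 (adjusted p = 0.00228), *CSF1R* at -1.27 (adjusted p = 0.0147) and *CD5L* at -3.59 (adjusted p = 0.051). Leaving out day 120 replicate 1 also made 1 DEG and *SLC11A1* pass (adjusted p = 0.0259), and so did either WT day 65 library for *SLC11A1* (adjusted p of 0.0382 and 0.0383). The calls of *MSR1*, *MRC1*, *ADGRE1* and *CSF1R* were lost without WT term replicate 2, the higher of the WT animals (adjusted p of 0.145, 0.181, 0.0909 and 0.234), where *MSR1* differed by -1.78 and *MRC1* by -1.79. Without WT term replicate 1 these were -3.72 and -3.46, and *ADGRE1* came to -5.82 and -7.51 without CF term replicate 1 and 2. *CD5L* came to -2.81 and -5.39 without these, and *SLC11A1* to -2.52 without WT term replicate 2. Those of *MSR1*, *MRC1* and *ADGRE1* were lost without CF term replicate 2 (0.0612, 0.0992 and 0.0616), and those of *MRC1* (0.0636) and *CSF1R* (0.133) without CF term replicate 1. *CSF1R* also lost its call without WT term replicate 1 (0.0649). *MARCO* stayed below 0.05 with each of the 20 libraries left out. By DESeq2's test *ADGRE1* did not pass (adjusted p = 0.313), while *SLC11A1* passed by that test (adjusted p = 0.00825) and in 1 fit over the 40 libraries (adjusted p = 0.0189).

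In distal lung 1 of the 7 genes, *MARCO*, was a DEG (-4.72 ± 0.61, adjusted p = 0.000652), against 0.682% of all genes lower in CF. *MRC1* (-2.12 ± 0.38, adjusted p = 0.00263), *MSR1* (-2.42 ± 0.44, adjusted p = 0.00286), *ADGRE1* (-5.05 ± 0.73, adjusted p = 0.00329) and *CSF1R* (-1.01 ± 0.24, adjusted p = 0.0131) were lower at the looser limit, against 7.23%. *SLC11A1* (-2.14, adjusted p = 0.0503) and *CD5L* (-2.93, adjusted p = 0.0614) were at its edge. Each passed it without either distal day 120 library of either genotype, and *SLC11A1* also without either WT day 65 or day 80 library (adjusted p of 0.0345 to 0.0487). *MARCO* was no DEG without either WT day 100, WT term replicate 2, either CF day 100 or either CF term library, with an adjusted p of at most 0.00941, nor with the WT day 100 libraries summed. *CSF1R* did not pass without WT term replicate 2 (-0.65, adjusted p = 0.104) or CF term replicate 1 (adjusted p = 0.0512). Without WT term replicate 2 *MARCO* differed by -3.95, *MSR1* by -1.60 and *SLC11A1* by -1.53, and without CF term replicate 2 *ADGRE1* differed by -5.69 and *CD5L* by -4.33 (-2.27 without CF term replicate 1). By DESeq2's test neither *MARCO* (adjusted p = 0.156) nor *ADGRE1* (adjusted p = 0.621) passed 0.05 in distal lung, while *SLC11A1* did (adjusted p = 0.00239). *SLC11A1* and *CD5L* also passed it without the filter (adjusted p of 0.0433 and 0.0407).

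**Figure D4:**
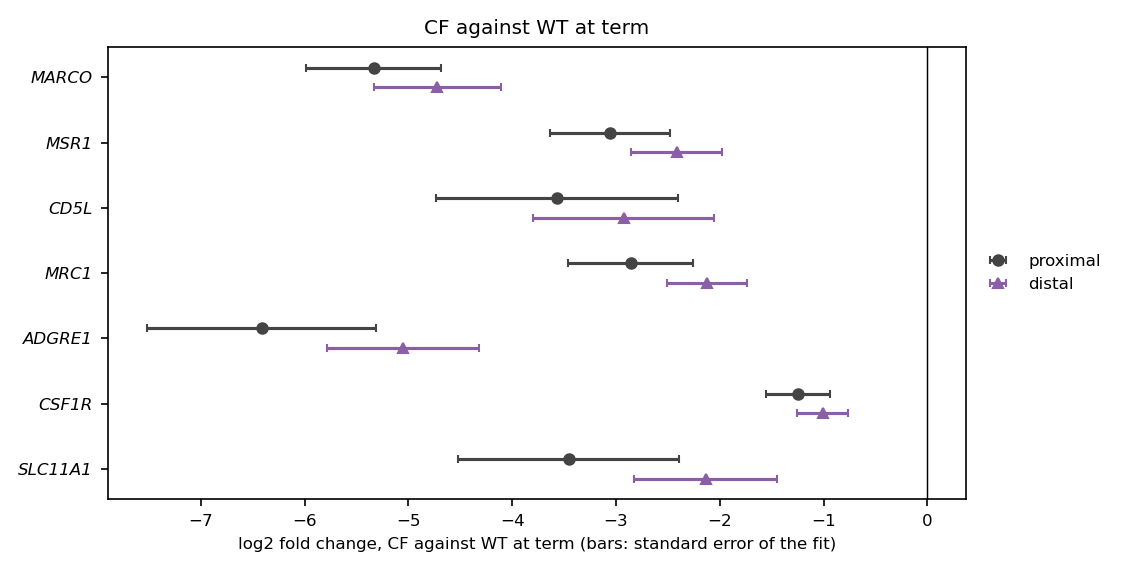
Log2 fold change of CF against WT at term for the 7 macrophage genes in proximal (circles) and distal lung (triangles), with bars of 1 standard error of the fit and a line at 0. All values lie below 0, from -6.41 (*ADGRE1*, proximal) to -1.01 (*CSF1R*, distal), and the bars of *CD5L*, *ADGRE1* and *SLC11A1* in proximal lung are the longest.

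Before term 1 of the 7 genes passed the looser limit for genotype. Over days 65 to 120 *MRC1* was lower in CF by -0.96 ± 0.29 in proximal (adjusted p = 0.0289) and -0.85 ± 0.19 in distal lung (adjusted p = 0.00328), log2 fold changes that passed the looser limit but not 0.001. The looser limit was passed downwards by 3.21% of all genes in proximal and 6.48% in distal lung, and 0.001 by 0.369% and 1.65%. In proximal lung the difference was -0.82 (adjusted p = 0.0303) without the CF day 120 library that stood apart. It lost its call without any 1 of 9 other libraries, WT day 65 replicate 1, day 80 replicate 2, day 100 replicate 1 and day 120 replicate 1 and CF day 65 replicates 1 and 2, day 80 replicate 1 and day 100 replicates 1 and 2 (adjusted p of 0.0524 to 0.0707). In distal lung the call held with each library left out. Of single days, *MRC1* passed the looser limit in distal lung at day 100 (-1.55 ± 0.38, adjusted p = 0.0319), which 1.3% of all genes passed downwards, and lost it without any 1 of its 4 day 100 libraries (adjusted p of 0.0808 to 0.272), in 1 fit over the 40 libraries (0.103) and with the WT day 100 libraries summed (0.159). No other gene passed on a single day, when 0.0541%, 0.0147%, 0.0885% and 0.256% of all genes did downwards in proximal lung at days 65, 80, 100 and 120, and 0.822%, 1.78% and 1.04% in distal lung at days 65, 80 and 120. Both WT distal day 100 libraries carry 1 animal label.

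*CSF1R* differed by -0.12 (adjusted p = 0.627) in proximal and -0.29 (adjusted p = 0.0847) in distal lung over days 65 to 120, and *MSR1* by -0.18 (adjusted p = 0.712) and -0.48 (adjusted p = 0.107). *SLC11A1* differed by -1.06 (adjusted p = 0.257) in proximal and 0.86 (adjusted p = 0.182) in distal lung. Without the library that stood apart the proximal values were -0.15 for *CSF1R* (adjusted p = 0.538), -0.11 for *MSR1* (adjusted p = 0.842) and -1.42 for *SLC11A1* (adjusted p = 0.115). None of these passed the limit, which does not show that the genotypes were alike.

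Whether the rise from day 120 to term itself differed between the genotypes was tested by an interaction term. None of the 7 genes passed 0.001 in either region by edgeR or DESeq2, with 3 values in proximal and 4 in distal lung at an unadjusted p below 0.05, and 0.0442% and 0.134% of all genes passed downwards. In distal lung *MSR1* passed the looser limit, with a rise that was smaller in CF by -2.13 ± 0.61 on the log2 scale (adjusted p = 0.0414), against 5.1% of all genes in that direction. It lost the call with any 1 of 11 of the 20 libraries left out, with the smallest difference (-1.30, adjusted p = 0.181) without WT distal term replicate 2. The call was also lost in 1 fit over the 40 libraries (adjusted p = 0.0694), with counts thinned to equal depth (0.0771) and with the WT day 100 libraries summed (0.0533). In proximal lung the value for *MSR1* was -2.65 ± 0.78 (adjusted p = 0.11), which passed without WT proximal term replicate 1 (0.0409), by DESeq2's test (0.0181) and in 1 fit over the 40 libraries (0.0259), while it was -1.37 (0.54) without WT proximal term replicate 2. By edgeR with all 20 libraries none of the 7 passed, against 1.19% of all genes. The interaction of *MRC1* came to -1.32 ± 0.80 (proximal) and -1.37 ± 0.53 (distal), and that of *CSF1R* to -0.94 ± 0.43 and -0.83 ± 0.34, with adjusted p-values of 0.116 to 0.453. The proximal value of *MRC1* was -0.26 (adjusted p = 0.985) without WT proximal term replicate 2. The interaction of *SLC11A1* came to -4.06 (adjusted p = 0.206, and 0.0341 without CF proximal day 120 replicate 1) and -1.89 (adjusted p = 0.292), and ran from -6.09 to -2.62 and from -3.14 to -1.11 with 1 library left out. Without CF proximal day 120 replicate 2, the library that stood apart, the proximal values were -2.62 for *SLC11A1* (adjusted p = 0.358), -1.93 for *MRC1* (adjusted p = 0.148), -2.94 for *MSR1* (adjusted p = 0.0546) and -0.87 for *CSF1R* (adjusted p = 0.311). *MARCO*, *CD5L* and *ADGRE1* had a day 120 group at or under 3 reads and give no usable value. By edgeR in the fit of 20 libraries the difference in the size of the rise passed the looser limit only for *MSR1* in distal lung, and that call changed under the settings above. A rise past a limit in one genotype and not in the other does not show one for the rest.

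No difference between distal and proximal lung was detected for these genes, in tests that did not pair the regions of an animal. The deviations between replicates correlated from -0.28 to 0.84 between the regions, so such tests can miss a difference within animals. None of the 7 passed an adjusted 0.05 in 10 tests of single days or in 2 over all 5 time points, while 5 values had an unadjusted p below 0.05 by edgeR and DESeq2 called none at 0.001. Over the 5 time points 0.016% of all genes passed in WT and 0.00497% in CF, and on single days 0.0107% in WT at day 120, 0.00534% in WT at term and 0% on all others. Over the 5 time points the lowest unadjusted p was that of *SLC11A1* in CF, with a distal against proximal log2 fold change of 1.02 ± 0.31 (unadjusted p = 0.00601, adjusted p = 0.9999), or 1.31 ± 0.27 (adjusted p = 0.72) without the library that stood apart. At term, the distal against proximal difference in WT was 0.31 ± 0.45 for *MARCO*, -0.94 ± 0.44 for *MRC1* and -0.02 ± 0.22 for *CSF1R*, and in CF it was 0.90 ± 0.84, -0.23 ± 0.51 and 0.19 ± 0.31.

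The macrophage genes were set beside 7 lists of related genes and 12 lists of cell type markers, with the 8 genes themselves taken out. Of 15 other general macrophage genes tested, 14 rose from day 120 to term at the looser limit in WT proximal, 14 in WT distal, none in CF proximal and 12 in CF distal lung, and none fell. Their median log2 fold changes were 3.38, 3.15, 1.57 and 1.90, against 0.06, 0.04, -0.12 and -0.06 over all genes. Of all genes, 11.3%, 11.8%, 0.0762% and 11.5% rose at this limit in the 4 courses in that order, and 8.78%, 10.5%, 0.279% and 11.4% fell. Between the genotypes at term, 2.6% were higher and 3.48% lower in CF proximal, and 7.16% higher and 7.23% lower in CF distal lung. The counts of each list below are to be read beside these shares. The list includes *ITGB2* and *ITGAM*, the chains of the complement receptor CR3, *LYZ*, the lysozyme gene, *CYBB*, the phagocyte oxidase subunit, and *C1QA*, *C1QB* and *C1QC* of complement C1q. In WT proximal lung *ITGB2* rose by 4.62 ± 0.32 (adjusted p = 7.45e-05), *ITGAM* by 4.97 ± 0.58 (adjusted p = 0.000705) and *LYZ* by 6.43 ± 0.83 (adjusted p = 0.00108). In CF distal lung *C1QA* rose by 3.44 ± 0.30 (adjusted p = 0.000566) and *C1QB* by 2.85 ± 0.28 (adjusted p = 0.000758).

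At term the general macrophage genes were lower in CF at the looser limit for 7 of 15 in proximal and 4 of 15 in distal lung, none was higher, and their medians were -1.56 and -1.15 against -0.03 and 0.00 over all genes. *ITGAM* differed by -4.49 ± 0.79 (adjusted p = 0.00552) in proximal and -3.30 ± 0.73 (adjusted p = 0.00833) in distal lung, *ITGB2* by -2.77 ± 0.39 (adjusted p = 0.00133) and -2.02 ± 0.42 (adjusted p = 0.00591), and *CYBB* by -2.75 ± 0.43 (adjusted p = 0.00262) and -1.50 ± 0.29 (adjusted p = 0.0036). *C1QA* had 200 to 401 CPM in the 4 WT and 81.4 to 136 CPM in the 4 CF term libraries. Summed over the 15 genes, WT proximal term libraries held 1907 and 3131 CPM and WT distal 1542 and 2736 CPM. CF proximal held 1100 and 1472 CPM and CF distal 1485 and 1567 CPM, which overlaps WT distal lung.

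Alveolar macrophage genes changed unevenly. Of 11 tested, 5 rose and 1 fell from day 120 to term in WT proximal lung, 6 rose and 1 fell in WT distal, none passed in CF proximal and 2 rose in CF distal lung. The largest rise was that of *FABP4*, a lipid carrier of alveolar macrophages, which had 6.34 and 81.8 CPM in WT proximal and 3.41 and 49.8 CPM in WT distal lung at term. In CF at term *FABP4* had 0.213 and 0.121 CPM in proximal and 0.200 and 0.535 CPM in distal lung. The 4 CF libraries were thus below the lowest WT library (CF against WT, proximal -8.02 ± 1.95, adjusted p = 0.0294, distal -6.16 ± 1.45, adjusted p = 0.0144). *MCEMP1*, a mast cell and macrophage membrane protein gene, was also lower in CF, by -4.39 ± 1.04 (adjusted p = 0.0239) in proximal and -2.94 (adjusted p = 0.0155) in distal lung, and so was the integrin gene *ITGAX*, by -3.71 ± 1.01 (adjusted p = 0.0451) and -2.21 (adjusted p = 0.0247). Summed levels of the 11 genes overlapped between the genotypes, with 356 to 700 CPM in WT and 335 to 542 CPM in CF at term. In all, 3 of 11 were lower in CF proximal lung and 4 lower and 1 higher in CF distal lung.

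Of 10 genes of tissue-resident fetal macrophages tested, 2 were higher in CF at term in each region, none was lower and 8 did not pass. The 10 genes summed to 793 to 1013 CPM in WT and 1276 to 2556 CPM in CF at term, without overlap. These sums include the uneven levels of *LYVE1* given next. *LYVE1*, a hyaluronan receptor of lymphatic vessels and of tissue macrophages, had 119 and 95.6 CPM in WT proximal, 106 and 125 CPM in WT distal, 157 and 1090.2 CPM in CF proximal and 128 and 1285 CPM in CF distal lung. CF replicate 2 was far above all other libraries, and CF replicate 1 was above the WT libraries by a small margin. The difference was 2.54 ± 0.65 in proximal (adjusted p = 0.0346) and 2.64 ± 0.73 in distal lung (adjusted p = 0.0254). *LYVE1* was the only gene of the lists to pass the looser limit at term against day 120 in CF proximal lung (7.20 ± 0.90, adjusted p = 0.0262). That test includes the CF proximal day 120 library that stood apart. The selenoprotein gene *SEPP1* was higher in CF by 0.85 ± 0.22 (adjusted p = 0.0376) and 0.96 ± 0.21 (adjusted p = 0.00733). Over the course to term, 2 genes of the list rose and 2 fell in WT proximal lung (*IGF1* fell by 2.14 on the log2 scale and *MAF* by 1.19), 3 rose and 1 fell in WT distal, 1 rose in CF proximal, and 3 rose and 1 fell in CF distal lung.

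Among other scavenger and lectin receptors, 4 of 19 rose and 5 fell at term in WT proximal lung, 4 rose and 5 fell in WT distal, none passed in CF proximal, and 5 rose and 2 fell in CF distal lung. *TREM2*, a lipid-sensing receptor of macrophages, had the largest rise, by 6.14 ± 1.06 in WT proximal (adjusted p = 0.0037) and 4.39 ± 1.07 in WT distal lung (adjusted p = 0.0186). It was lower in CF at term by -6.38 ± 1.17 (adjusted p = 0.0072) in proximal and -3.66 (adjusted p = 0.0163) in distal lung, and its highest CF term library held 0.401 CPM against at least 1.21 CPM in WT. *COLEC12*, a scavenger receptor of endothelial and stromal cells, was higher in CF, by 1.00 ± 0.21 (adjusted p = 0.0146) and 0.89 ± 0.18 (adjusted p = 0.00473), and *SIGLEC1*, the sialoadhesin gene of tissue macrophages and the 1 alveolar list gene higher in CF, differed in distal lung by 1.08 ± 0.28 (adjusted p = 0.0205). In all, 1 of the 19 was higher and 3 lower in CF proximal lung, and 2 were higher and 1 lower in CF distal lung.

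Of 9 macrophage growth factor and receptor genes tested, 4 rose and 1 fell at term in WT proximal lung, 3 rose and 1 fell in WT distal, none passed in CF proximal, and 1 rose and 1 fell in CF distal lung. *CSF1*, the gene of the CSF-1 receptor's main ligand, rose by 1.08 ± 0.22 in WT proximal (adjusted p = 0.00742) and 1.13 ± 0.21 in WT distal lung (adjusted p = 0.00594). At term it reached 62.5 and 53.0 CPM in WT proximal, 58.6 and 50.5 CPM in WT distal, 49.1 and 34.4 CPM in CF proximal and 52.3 and 27.2 CPM in CF distal lung, with overlap between the genotypes in distal lung. *CSF2* was low, at 0.497 to 2.49 CPM in WT and 0.10 to 2.14 CPM in CF at term. None of the 9 passed the looser limit for CF against WT in proximal lung, and *TGFBR2* was lower in distal lung (-1.60, adjusted p = 0.0432).

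Of 12 transcription factor genes of the myeloid lineage, 5 rose and 1 fell at term in WT proximal lung, 6 rose in WT distal, none passed in CF proximal and 4 rose in CF distal lung. *SPI1*, which encodes the myeloid master factor PU.1, rose by 3.99 ± 0.53 in WT proximal (adjusted p = 0.00121) and 2.67 ± 0.49 in CF distal lung (adjusted p = 0.00929). *IRF5* rose by 2.89 ± 0.31 in WT proximal (adjusted p = 0.000475) and 1.36 ± 0.30 in CF distal lung (adjusted p = 0.0162). None of the 12 differed between the genotypes at term at the looser limit, although *SPI1* had 17.9 to 61.1 CPM in WT and 7.48 to 21.5 CPM in CF.

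Of 16 genes of iron and haem handling, 6 rose at term in WT proximal and 6 in WT distal lung, none passed in CF proximal, and 7 rose and 1 fell in CF distal lung. *HMOX1*, haem oxygenase 1, rose by 1.59 ± 0.29 in WT proximal lung (adjusted p = 0.00454), and *BLVRB*, a biliverdin reductase gene, by 1.41 ± 0.26 in WT proximal (adjusted p = 0.00518) and 2.30 ± 0.36 in CF distal lung (adjusted p = 0.00594). Between the genotypes none of the 16 passed in proximal lung, and 2 were lower in CF distal lung, the metalloreductase gene *STEAP3* (-3.14, adjusted p = 0.0246) and the ceruloplasmin gene *CP* (-1.80, adjusted p = 0.0481).

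**Figure D5:**
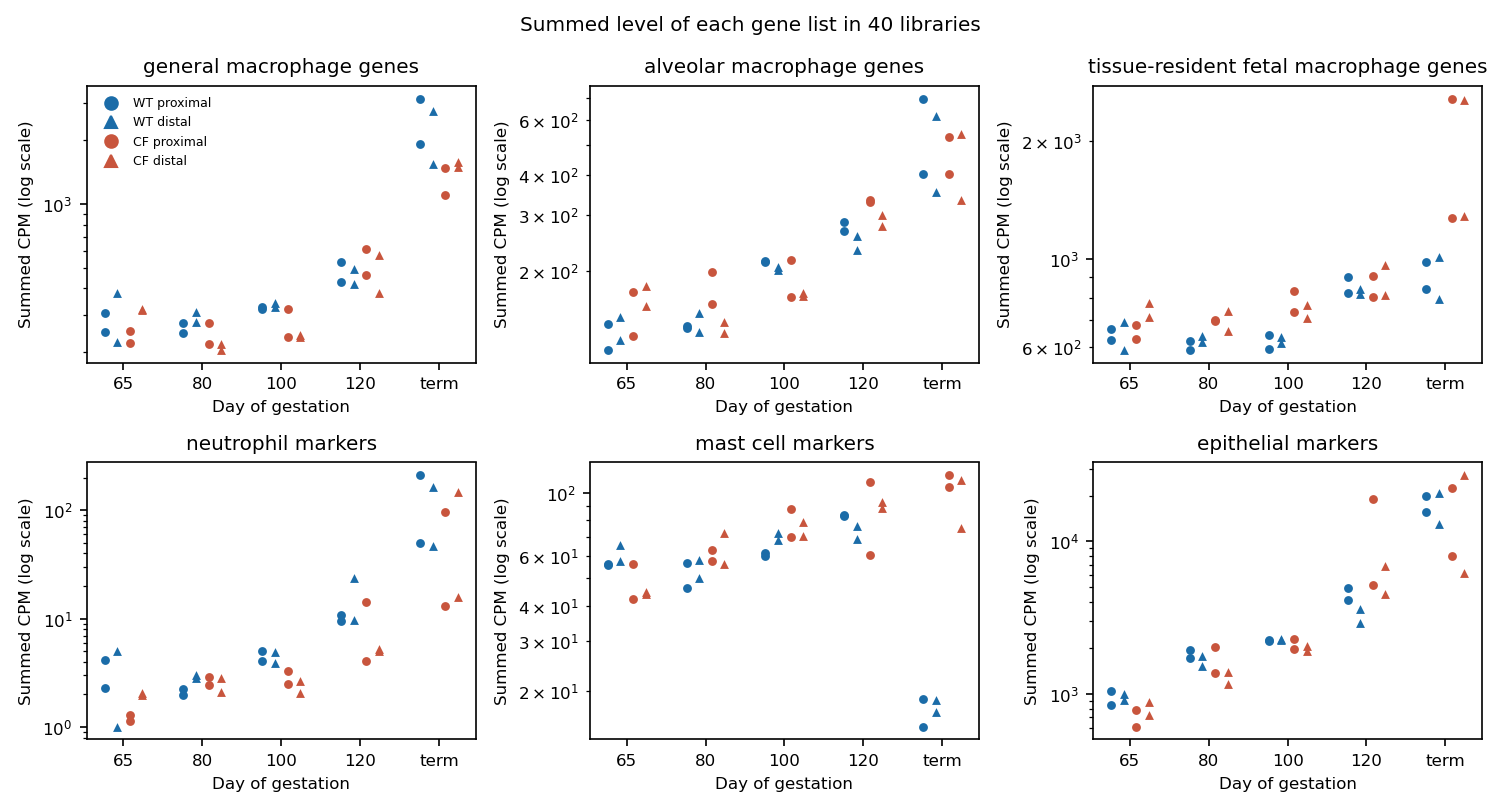
Summed CPM (log axes) of 3 lists of macrophage genes, without the 8 genes described first, and of neutrophil, mast cell and epithelial markers, against day of gestation, 1 point per library, with WT in blue, CF in red, proximal lung as circles and distal lung as triangles. General macrophage genes reached 1542 to 3131 CPM in WT and 1100 to 1567 CPM in CF at term. Mast cell markers were then at 15 to 18.8 CPM in WT and 75.0 to 115 CPM in CF, against 46.1 to 83.4 and 42.2 to 109 CPM before term.

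Markers of other cell types also changed, in differing directions. Of 7 neutrophil markers, 5 rose at term in WT proximal, 4 in WT distal, none in CF proximal and 6 in CF distal lung. All 8 neutrophil markers with a row summed at term to 46.6 to 212 CPM in WT and 13.1 to 149 CPM in CF, against 1.01 to 23.7 CPM before term. None of the 7 tested differed between the genotypes at term. Mast cell markers summed to 15 to 18.8 CPM in WT and 75.0 to 115 CPM in CF at term. Before term they summed to 46.1 to 83.4 CPM in WT and 42.2 to 109 CPM in CF. The WT sums at term were thus below every earlier library, while the CF sums overlapped the earlier ones. At term 2 of these markers were higher in CF in each region. The stem cell factor receptor gene *KIT* (-2.17 ± 0.24 at term against day 120 in WT proximal lung, adjusted p = 0.000518) was a DEG between the genotypes in distal lung (2.36 ± 0.30, adjusted p = 0.000274). Of 6 monocyte markers 3 rose and 1 fell in WT proximal and in WT distal lung, none passed in CF proximal, and 2 rose and 1 fell in CF distal lung, and 2 were lower in CF proximal (*FCN1* and *LYZ*) and 1 in CF distal lung (*VCAN*). The monocyte markers summed to 200.03 to 334 CPM in the 4 WT and 68.0 to 104 CPM in the 4 CF term libraries, which did not overlap. Before term they summed to 254 to 926 CPM in WT and 74.8 to 826 CPM in CF. The median sum was thus lower at term in every course, although more of these markers rose than fell, so the sum does not stand for the markers as a set. All 6 erythroid markers fell at term in both WT courses and 4 in CF distal lung. Of 7 epithelial markers, 6, 5, 0 and 4 rose in WT proximal, WT distal, CF proximal and CF distal lung, and their sum at term spread between the CF animals, with 22589 and 7997 CPM in proximal and 27255 and 6166 CPM in distal lung. The part of these cell types in the macrophage gene levels was not tested.

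Of 7 dendritic cell markers 3, 2, 0 and 2 rose at term in WT proximal, WT distal, CF proximal and CF distal lung. T cell markers rose for 0, 1, 0 and 4 of 5 genes, B cell markers for 1, 1, 0 and 3 of 4 or 5, and NK cell markers for 1, 1, 0 and 2 of 2. In CF distal lung T cell markers summed to 36.2 and 94.9 CPM at term against 7.89 to 15.7 CPM before. The 4 NK cell markers with a row summed to 1.18 and 28.6 CPM against 0.0748 to 0.660 CPM. None of these 4 lists had a gene that differed between the genotypes at term. Of 5 fibroblast markers 3, 1, 0 and 1 fell, and 2 were higher in CF at term in each region. Of 6 endothelial markers 1, 2, 0 and 1 fell, and 2 were higher in CF distal lung. Liver markers, a sign of other tissue, summed to at most 28.4 CPM.

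The genes most like each macrophage gene over the 40 libraries were sought among 15442 genes by Pearson's r of log2 CPM. These values are descriptions, since the libraries share animals and the contrast of term with earlier days. Among the genes most like *MARCO* were *ADGRE1* (r = 0.944) and *C1QA* (0.930), and among those most like *CD5L* were *ADGRE1* (0.941) and *THEMIS2* (0.941). *ADGRE1* was closest to *MARCO*, to *ALAS1* (0.943), which encodes the first enzyme of haem synthesis, and to *CD5L*. Over the 32 libraries before term the r of *MARCO* with *C1QA* was 0.322 and that of *CD5L* with *THEMIS2* 0.284, so that these likenesses came mostly from the term libraries. *CSF1R* was closest to *ITGB2* (0.948), to the interleukin-10 receptor gene *IL10RA* (0.946) and to *BIN2* (0.946), with 0.761, 0.778 and 0.768 before term. *MRC1* had the highest values before term, 0.875 with *LOC105612575*, 0.832 with *LOC101117971* and 0.832 with *TFEC* (0.937, 0.895 and 0.889 over all 40). *MSR1* was closest to *ARHGAP30* (0.938), *LOC101109907* (0.935) and *TNFRSF1B* (0.925), and *SLC11A1* to *HCLS1* (0.896), *LOC101102213* (0.880) and *LAT2* (0.878). Among the 7 genes themselves r ran from 0.585 (*MRC1* with *ADGRE1*) to 0.944 (*MARCO* with *ADGRE1*) over the 40 libraries, and before term those pairs had -0.30 and 0.312.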

How the data were processed

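The authors sequenced cDNA primed with oligo dT as 100 bp read pairs, aligned them with STAR to Oar_v4.0 and deposited raw counts per gene made with featureCounts 1.6.3, with the exon length of each gene, which is used here for CPM per kilobase. Day 50 libraries are not analysed here, and 20 columns identical to CF columns already used were left out.

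Counts were tested as deposited with edgeR 4.0.16 (R 4.3.3) by glmQLFit and glmQLFTest, after filterByExpr (minimum count 10, minimum total 15) and TMM scaling, in fits of 10 libraries for a time course and 20 for genotype or region. P-values were adjusted by Benjamini-Hochberg over all genes of a fit. The scripts were checked on simulated data. CPM values use TMM factors over the 40 libraries. Since most low counts were even, 95% intervals and lower bounds of folds (3 pairs) took pairs of reads as the unit, and cover counting error only.

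The 8 genes and the lists were chosen with earlier results of these data known. The text names the 8 genes, up to 4 genes of a list and comparison with the largest change among those at an adjusted p of 0.05 or less, and the 3 genes most like each of the 7 with a row, of which 1 gene is not reported here. *IRF5* in CF distal lung and the levels of *C1QA* and *SPI1* were given in addition. Likeness used log2 CPM with a prior of 0.5 CPM. Replicate numbers pair proximal and distal lung, since both came from 1 animal, though the deviations of such pairs correlated from -0.28 to 0.84. Alternatives were the 0.05 limit, DESeq2 1.42.0 and its size factors, no filter, thinned counts, a replicate block, 1 fit over 40 libraries, summed WT day 100 libraries and each library left out. The F test before term, its repeats with summed day 100 libraries and without the library that stood apart, and a crossed pairing were chosen after seeing the data.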

Additional observations from a re-analysis of the deposited data

Results flagged for a closer look

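The smaller rise of *MSR1*, a class A scavenger receptor gene, in CF than in WT distal lung drew attention because the difference between the genotypes was itself tested. The change from day 120 to term was smaller in CF by -2.13 ± 0.61 on the log2 scale (edgeR's quasi-likelihood test, adjusted p = 0.0414). *MSR1* had 3.39 and 2.10 CPM at day 120 and 16.6 and 42.7 CPM at term in WT distal lung, and 2.29 and 2.15 CPM and then 5.45 and 5.48 CPM in CF distal lung. The day 120 libraries of both genotypes overlapped and the term libraries did not. The difference passed 0.05 under 13 of 27 alternatives, with adjusted p-values from 0.00609 to 0.181.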

How the results depend on the processing

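Counts of DEGs among the 7 genes depended on the limit, the tool and single libraries. The counts in this section show that dependence only and stand without shares over all genes. They include *MARCO*, *CD5L* and *ADGRE1*, which entered nearly all tests only through the term libraries, so they are not read as results about these genes. At an adjusted p of 0.05, the counts over the 5 time points were 3 in CF proximal and 7 in CF distal lung, those at term against day 120 were 7 in WT proximal, 7 in WT distal and 7 in CF distal lung, and those of CF against WT were 5 proximal and 5 distal at term, 1 proximal and 1 distal over days 65 to 120, 1 in the 8 tests of single days and 1 for the difference in rise in distal lung. DESeq2's test gave 4 (CF proximal) and 5 (CF distal) over the 5 time points, 4 (WT distal), 1 (CF proximal) and 3 (CF distal) at term, 2 in the 12 earlier intervals, and for CF against WT 3 proximal and 2 distal at term and 1 distal over days 65 to 120. Without the filter there were 4 over the 5 time points in CF distal lung, 7, 4 and 1 at term in WT proximal, WT distal and CF distal lung, and 1 for the genotypes in proximal lung at term. One fit over the 40 libraries gave 6 and 6 over the 5 time points in CF proximal and CF distal lung, 5, 1 and 1 at term in WT distal, CF proximal and CF distal lung, and 3 in CF against WT proximal lung. DESeq2 size factors gave 1 at term in WT distal lung. With WT day 100 libraries summed there were 2 over the 5 time points and 0 at term against day 120 in WT distal lung, and 0 in CF against WT distal lung. Without the term libraries the F test at 0.001 gave 0 in all 4 courses, over the 4 genes tested (lowest adjusted p = 0.0112), and 0 with the WT day 100 libraries summed as well.

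The replicate block gave 1 at term in WT distal lung and moved no other count by over 1.5 times. Under it *SLC11A1* and *CD5L* passed 0.05 in CF against WT distal lung at term (adjusted p of 0.0368 and 0.0407). Across days or genotypes equal numbers mark no shared animal, and the deviations of same-numbered samples correlated from -0.63 to 0.80 across days and -0.19 to 0.39 across genotypes. The block with crossed numbers for CF distal days 65 and 80 gave 0 calls between regions.

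With 1 library left out, the counts ran from 5 to 7 (WT proximal), 2 to 6 (WT distal), 0 to 0 (CF proximal) and 0 to 2 (CF distal) over the 5 time points, from 1 to 6 (WT proximal) and 0 to 5 (WT distal) at term, and from 0 to 1 in CF against WT at term in each region. The other counts stayed at 0. *MSR1* in CF against WT proximal lung over days 65 to 120 was -0.18 and ran from -0.30 to 0.0216 with 1 library left out, turning positive without WT proximal day 65 replicate 2. None of these values passed a limit. The cause of these changes was not tested. Other settings left 349 values of single genes on their side of 0.05 and moved 22 below it and 13 above it.

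With 2 libraries a group, and read totals before term of 24670355 to 43700012 in WT, *MARCO*, *CD5L* and *ADGRE1* had at most 8 reads in a WT library there, and at most 12 in the more deeply read CF libraries.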
